A study of Mus musculus with 6 samples.

Results

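Genes of the Wnt pathway were examined in the rostral telencephalic primordium of E11.5 mouse embryos that carried or had lost Dicer, the nuclease that makes mature miRNAs from their precursors. The set was chosen by gene name. It took every gene named Wnt or Fzd with a number, together with Rspo1, Rspo2, Rspo3, Sfrp1, Sfrp2, Dkk1, Dkk3, Axin2, Lef1, Tcf7l2, Lrp5 and Lrp6. This gave 41 of the 55471 genes in the count tables. They were 19 ligands, 10 Frizzled receptors, 2 co-receptors, 3 R-spondins, 4 secreted inhibitors, and 3 effectors or targets inside the cell.

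Bulk RNA-seq was compared between 3 control and 3 Rx-Dicer libraries, numbered 1 to 3 in each group by their labels. Control embryos carried floxed Dicer on both alleles and no Cre, although their genotype field reads WT. Rx-Dicer embryos carried the same floxed alleles and the Rx-Cre transgene, which acts early in the forebrain under regulatory sequences of Rx (Rax). The Cre line was kept on a CD1 background and the floxed line on C57BL/6, so strain background may vary between libraries and also between genotypes. The study describes the controls as littermates of the mutants. In the study's own description, Cre acted more in the ventral and most rostral telencephalon than in the neocortex, so part of the tissue may keep Dicer. Whether a library came from 1 embryo or from a pool is not given in the labels, so p-values measure the spread between these libraries. In bulk tissue, fewer cells of a type and less RNA per cell cannot be told apart.

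Wnt proteins are secreted lipid-modified signals that bind Frizzled receptors together with the co-receptors Lrp5 and Lrp6. In the canonical branch this stabilises β-catenin, which acts with Tcf and Lef proteins on target genes such as Axin2. R-spondins raise the response by keeping Frizzled receptors at the cell surface, whereas secreted Frizzled-related proteins and Dkk1 reduce it. In the early forebrain, canonical Wnt signals come mainly from the dorsal midline and the cortical hem, while the most rostral forebrain forms where this signalling is held low.

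Since the study follows the let-7 and miR-9 families, 3′ UTRs of the members were searched for the words that pair with these miRNAs. The mature sequences are shown because they define the words; capitals mark the seed, bases 2 to 8 from the 5′ end (RefSeq, GRCm38.p6).
mmu-let-7a-5p: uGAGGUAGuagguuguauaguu
mmu-miR-9-5p: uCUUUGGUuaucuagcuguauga
The 8-base word searched is the reverse complement of the seed followed by an A, which is CTACCTCA for let-7 and ACCAAAGA for miR-9. The let-7 word stood in the annotated 3′ UTR of 7 of the 41 members (17.1%), against 643 of 21024 genes with a 3′ UTR (3.06%). UTRs of the members were longer, with a median of 1764 bases against 960, and per 10 kb of UTR the word occurred 0.799 times among members and 0.221 times over all genes. A shorter match of 7 bases (the seed complement, or 6 bases of it with the final A) was found in 11 members (26.8%) and in 14.9% of all genes. The 7 members with the 8-base word are shown with 30 bases of UTR sense strand each (GRCm38, GENCODE), capitals marking the word.
Wnt9a, chr11:59333409-59333438, plus strand: ctgtgatttctCTACCTCAactgtgtggcg
Wnt3a, chr11:59249323-59249352, minus strand: ggccggaagtcCTACCTCAatggcttggac
Wnt9b, chr11:103728680-103728709, minus strand: ggtatttctgcCTACCTCAtacatgtaatt
Wnt16, chr6:22293543-22293572, plus strand: tcttaccatgtCTACCTCAtaaacttttaa
Fzd3, chr14:65200861-65200890, minus strand: atctcctctacCTACCTCAcaaagttgtca
Fzd4, chr7:89412692-89412721, plus strand: ctgagtttcttCTACCTCAcagagatggtg
Dkk3, chr7:112117723-112117752, minus strand: tgtttcagctcCTACCTCActgtcagcaca
The miR-9 word was found in 1 member (2.44%), against 4.12% of all genes. This was Wnt8b, a ligand of the hem and medial wall.
Wnt8b, chr19:44512710-44512739, plus strand: ccttcctaaacACCAAAGAtactccagtca
These are matches of letters and not measured sites, and small RNA libraries were not analysed here.

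Sequencing depth was similar across the libraries, with totals of 34471501 to 48373468 counts on genes. Dicer1 was at 6355, 7070.2 and 6270.4 normalised counts in controls and at 4777, 7002 and 4644 in Rx-Dicer libraries. Between the groups of 3 libraries its log2 fold change was -0.26 ± 0.17 (SE, DESeq2 adjusted p = 0.567). The value of the library labelled Rx-Dicer 2 lay within the control range, and counts per gene include exons outside the deleted segment. Lhx2 and Emx2, transcription factors of the early forebrain, ranged from 14071 to 22363 and from 4997 to 9840.1 normalised counts over the 6 libraries. Of 5 microglial markers, Csf1r and Cx3cr1 rose, with list sums of 955 to 1108 in controls and 3616, 1083 and 2241 in Rx-Dicer libraries, and none of the 5 erythroid or 5 neuronal markers was called. Normalised counts here are read counts divided by the DESeq2 size factor of the library.

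To compare members with each other, normalised counts were divided by the length of the merged exons in kb. Sfrp1, a secreted Frizzled-related inhibitor made by telencephalic progenitors, stood highest, at 5496, 6673 and 5185 normalised counts per kb in controls and at 4513, 3725 and 6138 in Rx-Dicer libraries. Its lowest library was above the highest library of any other member. Fzd2 led the receptors at 1824, 2283 and 2398 per kb in controls and at 1897, 1751 and 1956 in Rx-Dicer libraries. Its range overlapped that of Rspo1, the next member in the order, whose libraries spread from 601 to 2313 per kb. Fzd8 (817 to 1457 per kb), Wnt7b (589 to 1222), Wnt8b (92.1 to 1695), Sfrp2 (813 to 1214), Fzd3 (689.8 to 860.2) and Fzd1 (507 to 767) followed, each overlapping its neighbours.

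**Figure D1:**
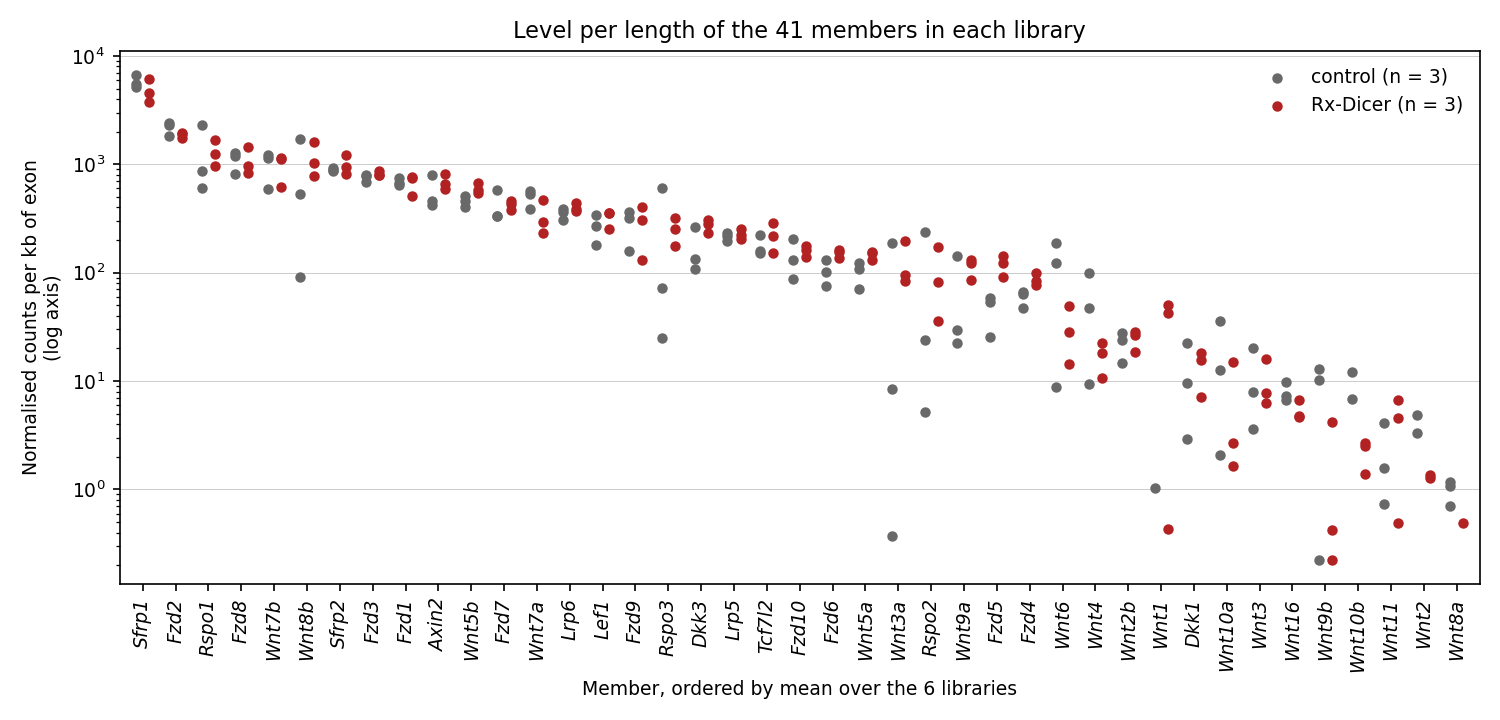
Normalised counts per kb of exon on a log axis for the 41 members, with 1 point per library (control in grey, Rx-Dicer in red) and zeros not drawn. Sfrp1 lies above the other members, and Wnt8b, Rspo2, Rspo3, Wnt3a and Wnt9a are spread widely among the controls.

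The ligand with the highest level in controls was Wnt7b, which signals in the forebrain and to its blood vessels, at 1222, 1156 and 589 per kb in controls and at 1148, 621 and 1124 in Rx-Dicer libraries. Lrp6 was the higher of the co-receptors, at 309 to 438 per kb against 196 to 252 for Lrp5. Among the effectors, Axin2, a negative feedback target of β-catenin, was at 423 to 806 per kb, Lef1 at 180.3 to 358 and Tcf7l2 at 151 to 287. At the other end, Wnt2, Wnt8a and Wnt11 stayed at or under 27.6 normalised counts in every library.

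The comparison of the genotypes asked which members differ beyond the spread between libraries. A member was called when its DESeq2 adjusted p, computed over all genes tested, was under 0.05 and its log2 fold change, in either direction, over 0.32. Of the 41 members, 38 had at least 10 counts in at least 3 libraries and 37 received an adjusted p. Wnt2, Wnt8a and Wnt11 were filtered for low counts by DESeq2, and Wnt3a received no p because a count was treated as an outlier. A single member was called, Fzd5, which was higher in Rx-Dicer libraries. That is 1 of 37, or 2.70%, beside 2.93% of all 17128 genes tested, of which 1.75% were called higher. The quasi-likelihood test of edgeR called 0 of 38 members and 0.0446% of its genes, and gave 5 members (13.2%) an unadjusted p under 0.05, beside 12.9% of its genes. With DESeq2 an unadjusted p under 0.05 was found for 9 members (24.3%), beside 13.1% of all genes tested, and 7 of the 9 were higher. Wnt1, which is not among the 38, is 1 of the 9 and of the 7. It was tested only through its counts in Rx-Dicer 1 and 3. With a filter on low counts before the fit, which leaves Wnt1 out, the number was 7 of 34 (20.6%), beside 14.7% of all genes. The median log2 fold change was 0.11 over the 37 members and -0.00087 over all genes tested.

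**Figure D2:**
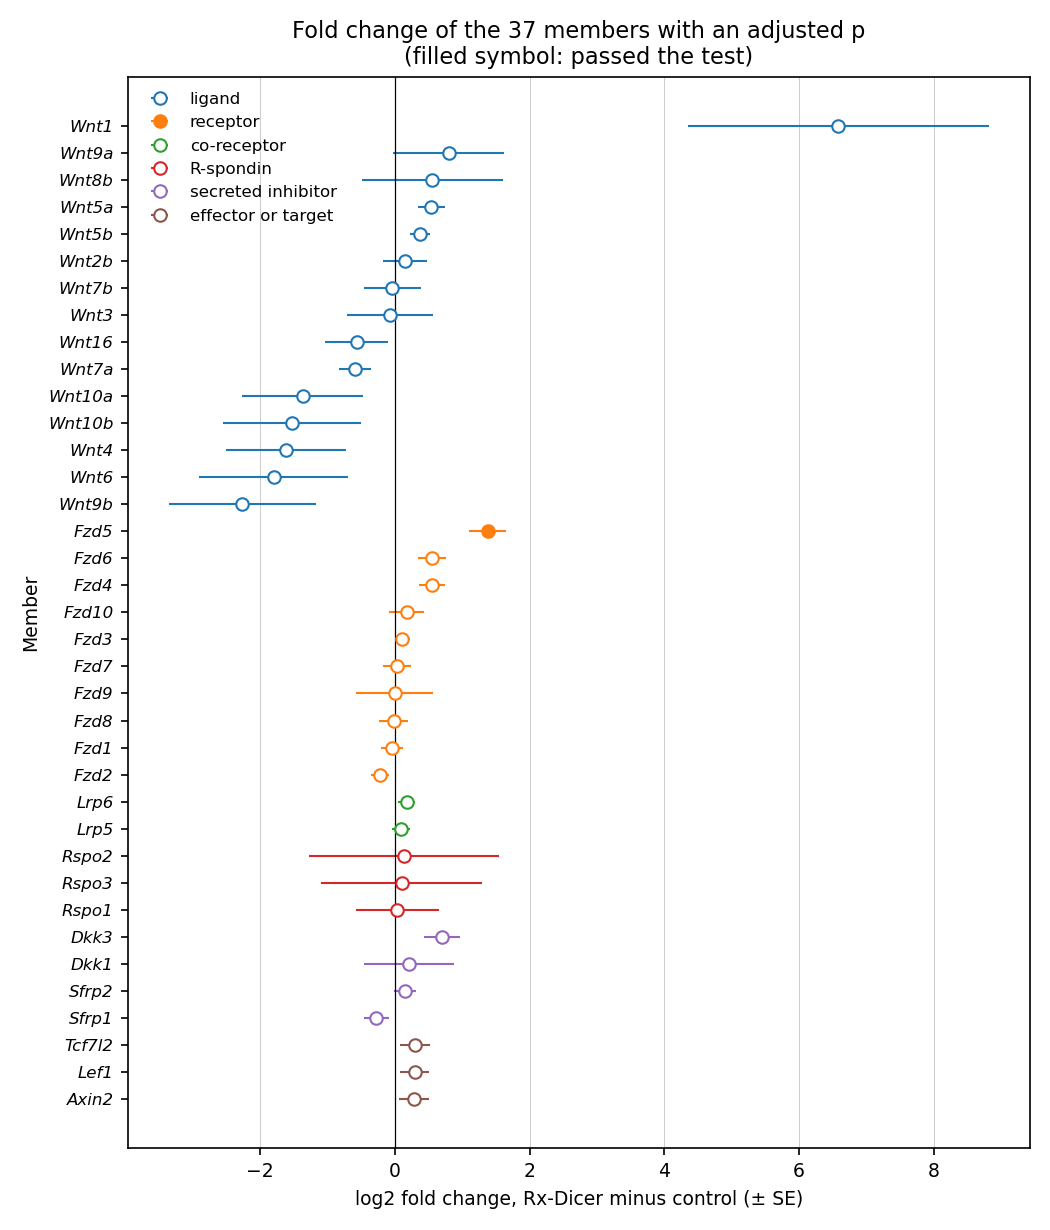
The log2 fold change, Rx-Dicer minus control, of the 37 members with an adjusted p, with bars for the SE and colours for the role of the member. Fzd5, at 1.38, is the filled symbol; Wnt1 lies far to the right with an SE of 2.23, and 5 ligands from Wnt10a to Wnt9b lie below -1 with SEs of 0.89 to 1.11.

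Fzd5 (ENSMUSG00000045005, GRCm38 chromosome 1, 64730558 to 64737751, minus strand) encodes a receptor known for its expression in the developing eye and hypothalamus. It stood at 176, 373 and 406 normalised counts in controls 1 to 3 and at 634, 858 and 992 in Rx-Dicer 1 to 3. The groups did not overlap, and the highest control was below the lowest Rx-Dicer library. The mean was 318 ± 124 (SD, n = 3) in controls and 828 ± 181 (n = 3) in Rx-Dicer libraries, a log2 fold change of 1.38 ± 0.27 (SE), or 2.6-fold (DESeq2 adjusted p = 0.000123). The call was lost under edgeR's quasi-likelihood test, with an adjusted p of 0.166 and an unadjusted p of 0.00206. It was kept when each library was left out in turn, with log2 fold changes of 1.09 to 1.59. The 3′ UTR of Fzd5, 4285 bases long, holds neither the let-7 nor the miR-9 word.

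Some forebrain marker genes also differed between the genotypes. Six3, a transcription factor of the most rostral forebrain and eye field, was at 1357, 684 and 1048 normalised counts in controls and at 2177, 3018 and 2247 in Rx-Dicer libraries (log2 fold change 1.27 ± 0.22, DESeq2 adjusted p = 6.27e-06). Of the 8 markers of hypothalamus and ventral diencephalon, Fezf1, Foxd1 and Otp rose, and none fell. The summed level of this list was 1724 to 2207 in controls and 2989.8 to 3681 in Rx-Dicer libraries, with no overlap, although Nkx2-2, Nkx2-4 and Foxb1 stayed at or under 22.8 in every library. Otx2 also rose, and Pax6 and Eomes, a pair of pallial markers, fell. Six3, Otx2 and Pax6 belong to a list of 10 telencephalic markers with a median log2 fold change of -0.07. The sum of that list was 164317 to 180246 in controls and 156544 to 175296 in Rx-Dicer libraries, with overlap. Among the controls, Fzd5 was lowest and Six3 highest in control 1. Among 8 subpallial markers Lhx6 and Lhx8 rose, and Nkx2-1 was at 3.66, 51.9 and 192 in controls and at 682, 1882 and 1307 in Rx-Dicer libraries (adjusted p = 0.0549). Their part in the difference of Fzd5 was not tested.

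A pair of further receptors had an unadjusted p under 0.05 and failed the adjustment. Fzd4, which also serves as the receptor for the vascular ligand Norrin, was at 320.0, 426 and 449 normalised counts in controls and at 564, 672 and 516 in Rx-Dicer libraries. Every Rx-Dicer library was above every control (log2 fold change 0.55 ± 0.19, adjusted p = 0.087 by DESeq2). The summed level of 6 endothelial markers was 6327 to 6742 in controls and 8095, 8489 and 3616 in Rx-Dicer libraries 1 to 3, none of the 6 was called, and their part in the values of Fzd4 was not tested. Fzd6, a receptor best known for planar cell polarity, was at 638, 491 and 365 in controls and at 749.6, 781 and 659 in Rx-Dicer libraries. These groups did not overlap either (0.55 ± 0.20, adjusted p = 0.130), and without control 1 the difference passed the test at 0.77 (adjusted p = 0.00477).

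For the remaining 7 receptors no difference between genotypes passed the test. Fzd3, a planar polarity receptor with a let-7 word, had the smallest standard error of these, at 10309, 10018 and 8832 normalised counts in controls and at 10258, 11015 and 10287 in Rx-Dicer libraries (log2 fold change 0.11 ± 0.11). Fzd2 was at 6680.1, 8364 and 8782 in controls and at 6950.4, 6415 and 7166 in Rx-Dicer libraries (-0.21 ± 0.14, adjusted p = 0.556). Log2 fold changes of Fzd1, Fzd7, Fzd8, Fzd9 and Fzd10 lay between -0.04 and 0.18, with adjusted p values from 0.897 to 1.00. Lrp5 and Lrp6 were at 0.09 ± 0.13 and 0.17 ± 0.13 with overlapping groups.

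Among the ligands, 15 of 19 received an adjusted p and none passed the threshold of 0.05 in DESeq2 or in edgeR, although 5 had an unadjusted p under 0.05 in DESeq2 and 2 in edgeR. Wnt5a and Wnt5b, ligands that act mainly through the branch without β-catenin, were higher in each Rx-Dicer library than in any control. Wnt5a was at 848, 549 and 970.4 normalised counts in controls and at 1194, 1218 and 1031 in Rx-Dicer libraries (0.54 ± 0.20, adjusted p = 0.136). Without control 3 it passed the DESeq2 test at 0.72 (adjusted p = 0.0452), beside 2.17% of all genes called then. Wnt5b was at 1074, 1361 and 1227 in controls and at 1527, 1438 and 1784 in Rx-Dicer libraries (0.37 ± 0.15, adjusted p = 0.173). Both are also made by mesenchyme, and 12 markers of head mesenchyme, of which none was called, summed to 54691, 37570.5 and 82613 in controls and to 73954, 59541 and 58646 in Rx-Dicer libraries, with overlap and the highest sum in control 3. The part of mesenchyme in these values was not tested.

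Over the 37 members, the groups did not overlap for 6 (16.2%), beside 19.3% of all genes tested. Of these, 5 were higher (13.5%, beside 8.55%), namely Fzd4, Fzd5, Fzd6, Wnt5a and Wnt5b, and Wnt16 was lower, at 29.3, 31.6 and 43.2 against 29.2, 20.4 and 20.9.

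Wnt7a, a ligand of ventricular progenitors and the forebrain vasculature, was at 1220.2, 1706 and 1789.5 normalised counts in controls and at 735, 1477 and 922 in Rx-Dicer libraries. Rx-Dicer 2 lay within the control range, and the other 2 libraries below it (log2 fold change -0.59 ± 0.24, adjusted p = 0.185 by DESeq2). Without Rx-Dicer 2 the difference passed the DESeq2 test at -0.92 (adjusted p = 0.00124), beside 3.77% of all genes called then. That fit leaves out the library that lay within the control range, so this call is no separate result. Rx-Dicer 2 also had the highest sum of the 8 subpallial markers, which was at 6022, 6690.4 and 12677 in controls and at 5021, 18429 and 5776 in Rx-Dicer libraries. The paralog of Wnt7a, Wnt7b, at 5985, 5661 and 2884 in controls and at 5621, 3043 and 5503 in Rx-Dicer libraries, had 1 low library in each group and a log2 fold change of -0.04 ± 0.42. Emx1, a pallial marker, was likewise low in control 3 and Rx-Dicer 2, at 4764, 5286 and 2156 in controls and at 4291, 921 and 3615 in Rx-Dicer libraries. The part of the subpallial markers and of Emx1 in the values of Wnt7a and Wnt7b was not tested.

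Wnt1, a ligand of the dorsal midline of the midbrain and more caudal neural tube, was nearly absent from 4 libraries. Its raw counts were 2, 0 and 0 in controls and, in Rx-Dicer libraries, 140, 1 and 107. The ratio of the summed counts, scaled for size factors, was 111 (95% exact interval 30.4 to 922, counting error only). Rx-Dicer 2 thus stood with the controls, and the adjusted p was 0.0841 (DESeq2). Without Rx-Dicer 2 the adjusted p was 2.26e-08 (DESeq2), in a fit that leaves out the library that stood with the controls. The midbrain genes En1, En2, Pax2 and Pax5, chosen after their values were seen, summed to 496, 84.5 and 109 normalised counts in controls and to 804, 467 and 345 in Rx-Dicer libraries, most of it from Pax5, and none of the 4 was called. En1 was at most 11.4 in Rx-Dicer libraries and at 62.3 in control 1. The part of these genes in the values of Wnt1 was not tested.

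**Figure D3:**
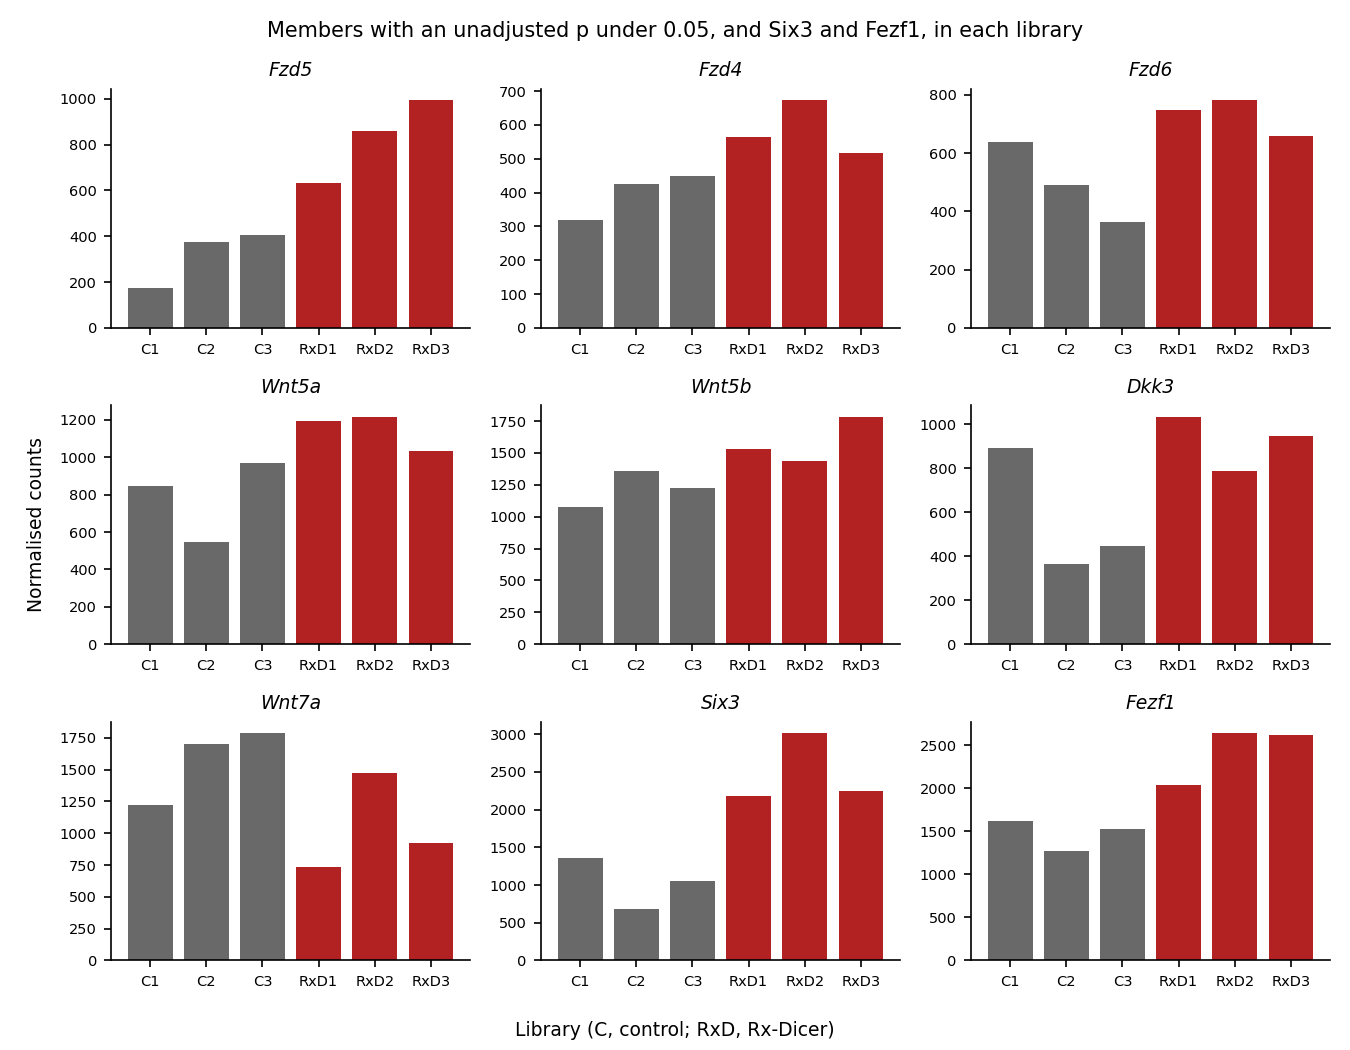
Normalised counts in each library for 7 members with an unadjusted p under 0.05 and for the marker genes Six3 and Fezf1, with bars starting at 0. The 3 Rx-Dicer bars (red) are above the 3 control bars (grey) for Fzd5, Fzd4, Fzd6, Wnt5a, Wnt5b, Six3 and Fezf1, whereas Dkk3 has control 1 within the Rx-Dicer range and Wnt7a has Rx-Dicer 2 within the control range.

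A second pattern ran between the control libraries rather than between the genotypes. In 10 of the 37 members tested (27.0%) control 1 was at least 2 times each of the other controls, beside 2.12% of all genes tested. These were Wnt1, Wnt3, Wnt4, Wnt8b, Wnt9a, Wnt10a, Rspo1, Rspo2, Rspo3 and Dkk1, of which Wnt1, Wnt3 and Dkk1 were at or under 62.3 normalised counts in every control. For Wnt1 the excess rests on raw counts of 2, 0 and 0. Wnt3a, which received no p, had the same excess in control 1. The members described for it were chosen after their values were seen. They include ligands and agonists of the hem and dorsal midline, where Wnt3a, Wnt8b and the R-spondins are known to be expressed. Wnt3a was at 519, 1.02 and 23.5 normalised counts in controls 1 to 3 and at 543, 261 and 231 in Rx-Dicer 1 to 3. Control 1 was thus at the level of Rx-Dicer 1, and the other controls were far below each Rx-Dicer library.

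Wnt8b was at 5897, 1842 and 320.3 normalised counts in controls and at 5582, 2712 and 3575 in Rx-Dicer libraries. Wnt9a was at 478, 75.4 and 98.6 in controls and at 432, 413 and 288 in Rx-Dicer libraries. For both, control 1 was higher than any Rx-Dicer library and the other controls lower than all of them. The R-spondins were likewise highest in control 1 among the controls, with Rspo1 at 4483, 1692 and 1165, Rspo2 at 1209, 26.5 and 121, and Rspo3 at 1852, 225 and 77.0. In Rx-Dicer libraries Rspo1 was at 3232, 1861 and 2435, Rspo2 at 886, 421 and 182, and Rspo3 at 996, 775 and 544. Each of the 3 R-spondins was therefore high in control 1 and higher in every Rx-Dicer library than in controls 2 and 3. Over all 6 libraries their log2 fold changes were 0.04 ± 0.61, 0.13 ± 1.41 and 0.10 ± 1.19, standard errors that exceed the values many times.

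Of the targets of the canonical branch described here, Axin2, Sp5, Notum, Lef1 and Myc were also highest in control 1 among the controls. The margin was small for Myc, and Ccnd1 was lowest in control 1. Axin2 was at 4376, 2524 and 2329 normalised counts in controls and at 4440.1, 3226 and 3597 in Rx-Dicer libraries (0.29 ± 0.22, adjusted p = 0.684). Sp5, a direct β-catenin target that like Notum was chosen after its values were seen, was at 370.1, 23.4 and 5.64 in controls and at 371, 183 and 213 in Rx-Dicer libraries, and Notum, a secreted enzyme that inactivates Wnt proteins and is itself a target, at 143, 5.09 and 5.64 against 395, 105 and 155. Lef1, a transcription factor of the pathway and also a target, spread less, at 2993, 2359.8 and 1585 in controls and at 3147, 2233 and 3134 in Rx-Dicer libraries (0.30 ± 0.22, adjusted p = 0.652), and Rx-Dicer 2 lay below control 2. Ccnd1, a cell cycle gene also known as a target, was at 31373, 33338 and 33706 in controls and at 28753, 33644 and 29910 in Rx-Dicer libraries. Myc, another such gene, was at 580.2, 540.8 and 531.7 in controls and at 629.5, 483.9 and 617.0 in Rx-Dicer libraries.

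Some genes of the rostral and dorsal midline outside the pathway were also highest in control 1 among the controls, and others were not. Fgf8 and Fgf17, ligands of the rostral signalling centre that were chosen after their values were seen, summed to 5558, 259 and 359.8 normalised counts in controls and to 5551, 3169 and 3274 in Rx-Dicer libraries. Bmp6 was at 446, 21.4 and 26.3 in controls and at 392, 292 and 247 in Rx-Dicer libraries. The whole list of 8 hem and choroid plexus markers summed to 6277, 2965 and 4806 in controls and to 5741, 6155 and 6434 in Rx-Dicer libraries, none of the 8 was called, and Ttr and Gdf7 were near 0. Bmp7 and Msx2 were, like Bmp6, highest in control 1 among the controls. Lmx1a was highest in control 2 (508, 582 and 339 in controls 1 to 3). Msx1 (2216, 1383 and 2930) and Lmx1b (446, 214 and 676) were highest in control 3. Rax, the gene whose regulatory sequences drive the Cre, was at 45.2, 1.02 and 0.939 in controls and at 39.5, 20.4 and 27.6 in Rx-Dicer libraries. The part of these markers in the values of the members was not tested.

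**Figure D4:**
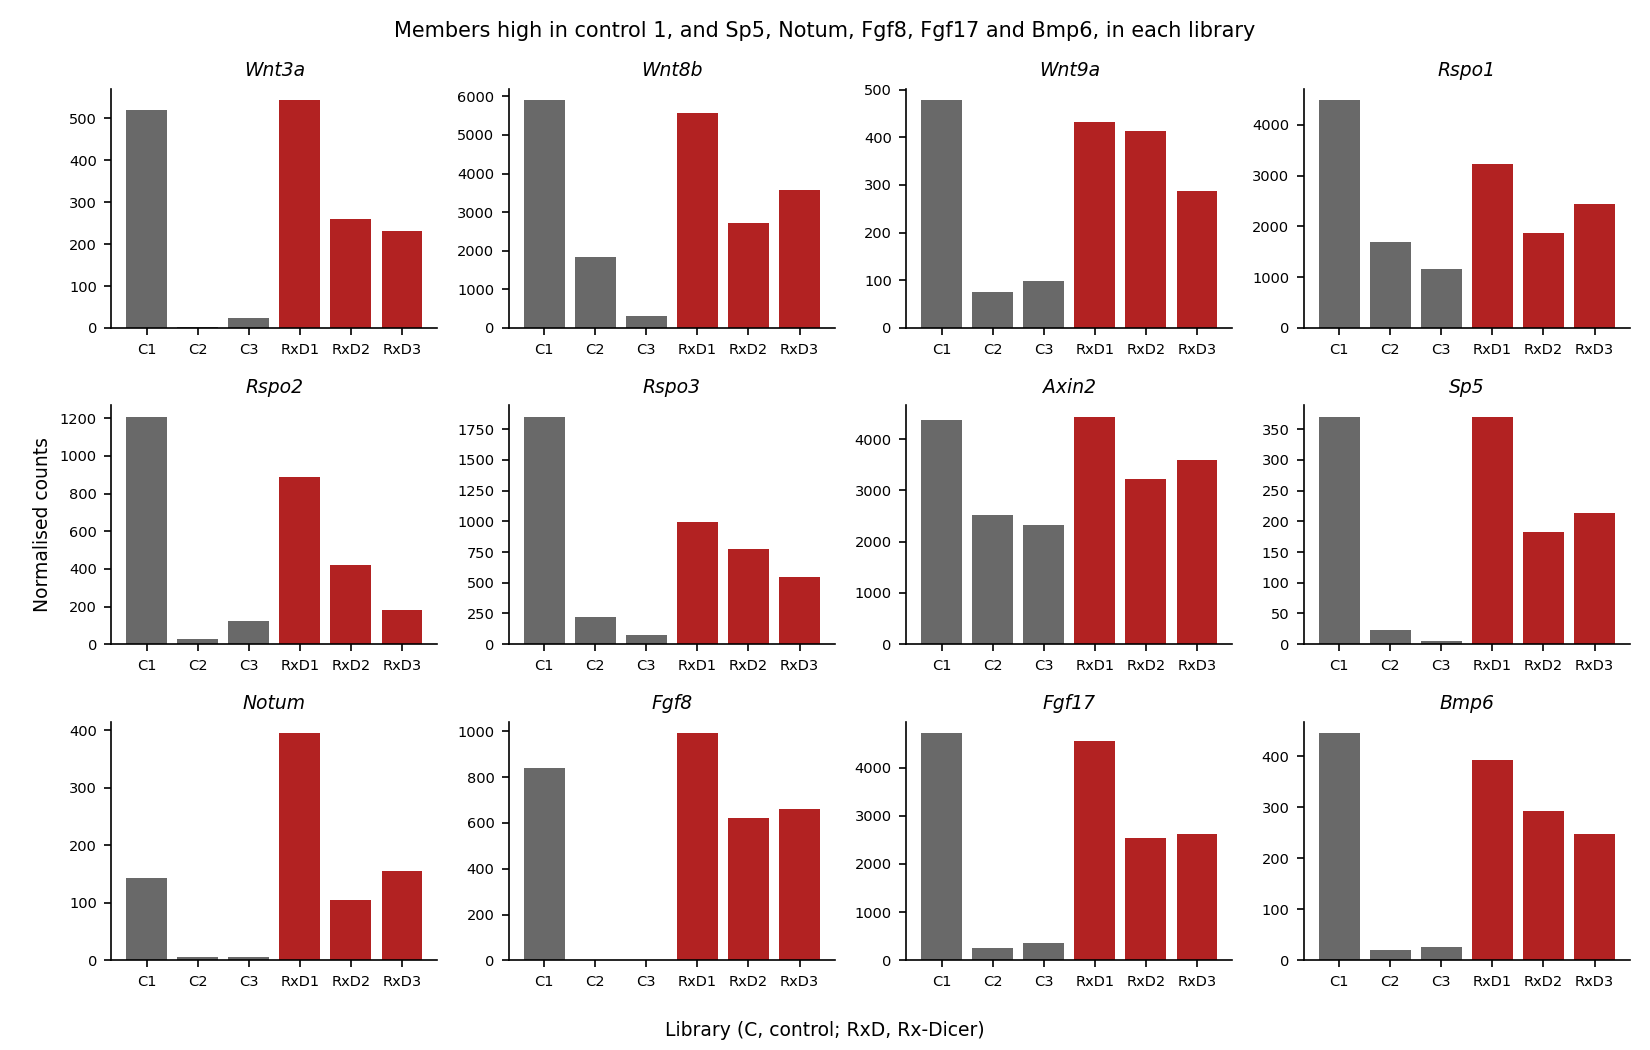
Normalised counts in each library, with bars from 0, for 7 members and for Sp5, Notum, Fgf8, Fgf17 and Bmp6. Control 1 stands with the 3 Rx-Dicer libraries in all 12 panels, while controls 2 and 3 are lower than each Rx-Dicer library, as for Wnt3a with 1.02 and 23.5 against 231 to 543.

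Leaving out control 1 changed the number of members called more than leaving out any other library. Without it, DESeq2 called 7 of 36 members tested (19.4%), each of them higher in Rx-Dicer libraries, beside 3.49% of all genes. They were Fzd5, Fzd6, Dkk3, Axin2, Wnt3a, Wnt9a and Rspo3, with log2 fold changes of 1.09, 0.77, 1.18, 0.63, 4.81, 2.12 and 2.35 and adjusted p values from 2.54e-11 to 0.0129. Of these, Fzd5 alone was called in the fit of all 6 libraries with genotype as the only term. Rspo1 (0.81, adjusted p = 0.0544), Rspo2 (2.75, 0.129), Wnt8b (1.87, 0.316) and Lef1 (0.52, 0.233) did not pass without control 1. In this fit a group held 2 libraries, and no label marks control 1 as different. Wnt3a, Wnt9a and Rspo3 had been described for their excess in control 1, so their calls without it are no separate result.

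Dkk3, a divergent member of the Dickkopf family, was the inhibitor with the largest difference. It was at 892, 366 and 447 normalised counts in controls and at 1034, 786 and 946 in Rx-Dicer libraries, so control 1 again lay within the Rx-Dicer range (0.70 ± 0.27, adjusted p = 0.164). Sfrp1 was at 24031, 29174 and 22668 in controls and at 19730.3, 16287 and 26835 in Rx-Dicer libraries (-0.27 ± 0.18, adjusted p = 0.594). Sfrp2 (0.15 ± 0.16) and Dkk1 (0.21 ± 0.66, at most 55.0 normalised counts) also had overlapping groups.

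A group of ligands known from surface ectoderm and other epithelia had low values in control 2. In 9 of the 37 members tested (24.3%) each other control was at least 2 times control 2, beside 1.76% of all genes tested. These were Wnt1, Wnt3, Wnt4, Wnt6, Wnt9b, Wnt10a, Wnt10b, Rspo2 and Dkk1, and 6 of them (Wnt1, Wnt3, Wnt4, Wnt10a, Rspo2 and Dkk1) are also among the 10 with the excess in control 1, so the counts are not separate. Wnt1, with raw counts of 2, 0 and 0 in controls 1 to 3, is counted only because controls 2 and 3 are both at 0. Those described here were again chosen after their values were seen. Wnt4 was at 413, 39.7 and 200.1 normalised counts in controls and at 93.5, 75.4 and 44.7 in Rx-Dicer libraries. Wnt6 was at 410.4, 19.4 and 271 in controls and at 107, 31.6 and 62.7 in Rx-Dicer libraries. Both were high in controls 1 and 3, with control 2 below the 3 Rx-Dicer libraries. Wnt9b, at 58.6, 1.02 and 46.0 in controls and at 18.9, 1.02 and 1.90 in Rx-Dicer libraries, had an unadjusted p under 0.05 and an adjusted p of 0.329 (DESeq2, log2 fold change -2.26 ± 1.09). Wnt10a (87.9, 5.09 and 31.0 against 36.9, 4.08 and 6.65) and Wnt10b (41.5, 0 and 23.5 against 8.58, 9.17 and 4.75) had the same order among the controls.

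With all libraries, the log2 fold changes of Wnt4 and Wnt6 were -1.61 ± 0.89 and -1.80 ± 1.11 with adjusted p values of 0.446 and 0.544. Without control 2 they passed the DESeq2 test at -2.10 (adjusted p = 0.000177) and -2.34 (adjusted p = 0.000122), and with Fzd5 they were the 3 members called then, beside 1.53% of all genes. Wnt4 and Wnt6 had been described for low values in control 2, so their calls without it are no separate result. Some epidermal genes were also high in controls 1 and 3. Trp63, the master transcription factor of stratified epithelium, was at 318, 6.11 and 144 in controls and at 24.9, 4.08 and 1.90 in Rx-Dicer libraries, and Krt5 at 131, 5.09 and 196 against 18.0, 8.15 and 3.80. The 9 markers of surface ectoderm and olfactory placode summed to 2966, 518 and 1435 in controls and to 1672, 789.6 and 1006 in Rx-Dicer libraries. In this sum Rx-Dicer 1 was above control 3, unlike for Trp63 and Krt5. Of the 9 markers, 1, Krt15, was called lower. Their part in the values of these ligands was not tested.

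**Figure D5:**
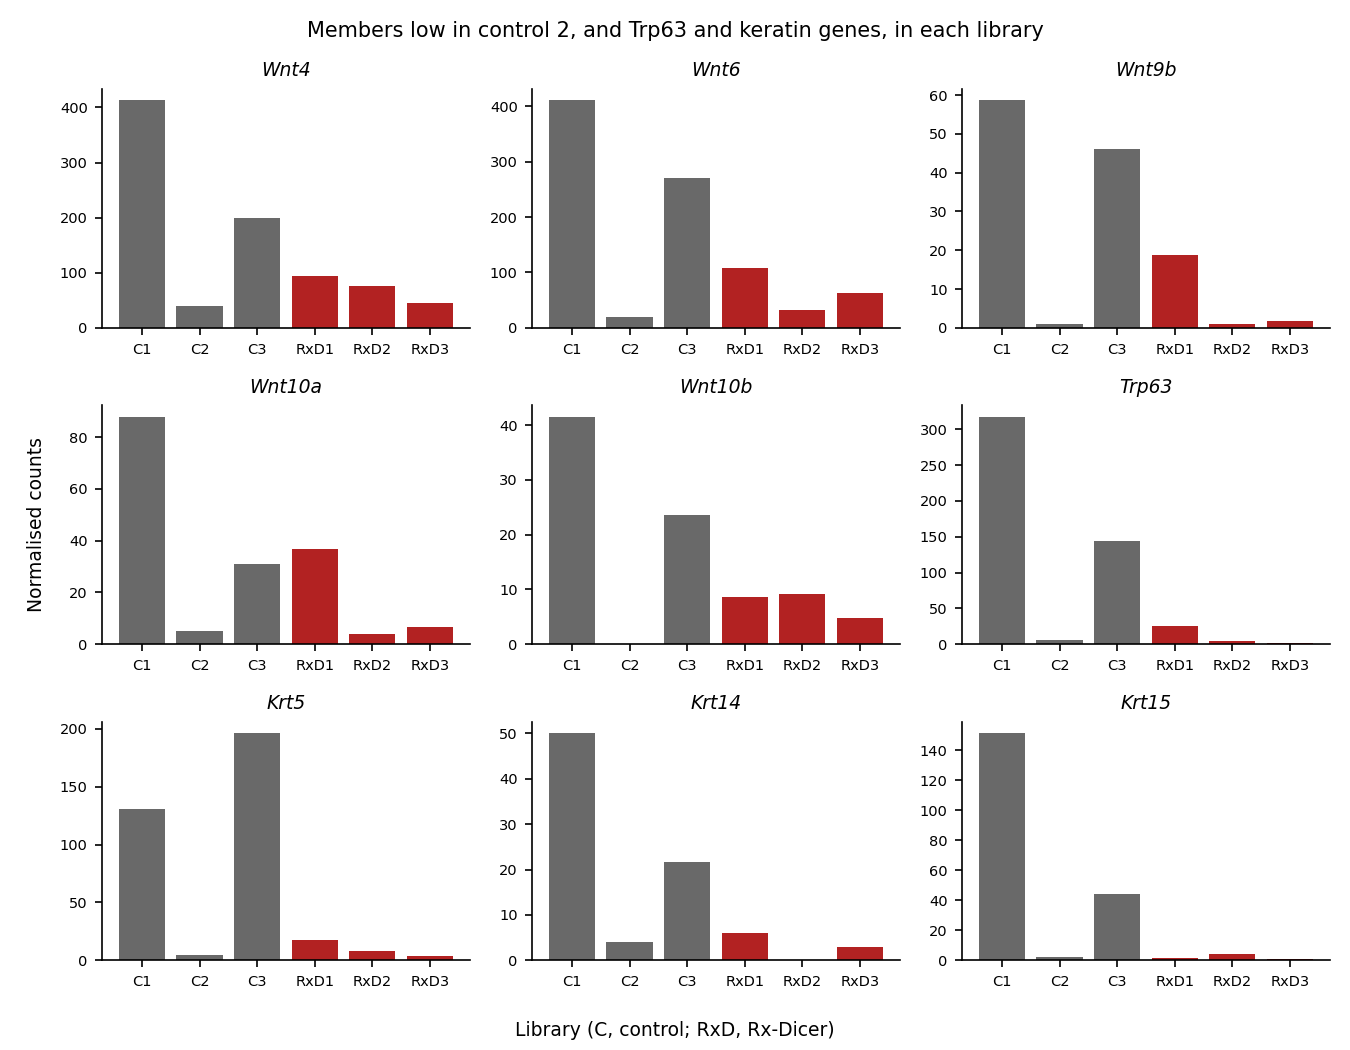
Normalised counts in each library, with bars from 0, for Wnt4, Wnt6, Wnt9b, Wnt10a and Wnt10b and for Trp63 and 3 keratin genes. Controls 1 and 3 are the high bars (413 and 200.1 for Wnt4, 318 and 144 for Trp63), except that Rx-Dicer 1 (36.9) exceeds control 3 (31.0) for Wnt10a, and control 2 and Rx-Dicer 2 and 3 are low.

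The ligands not yet described were low. Wnt2b ranged from 61.1 to 119 normalised counts and Wnt3 from 11.2 to 62.3, and neither differed between genotypes beyond the spread of its libraries (0.15 ± 0.33 and -0.08 ± 0.64). Tcf7l2, the remaining effector, was at 1325, 1399 and 1959 in controls and at 1330.2, 2521 and 1914 in Rx-Dicer libraries (0.30 ± 0.22).

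No member with the let-7 word was called in the fit of all 6 libraries with genotype as the only term and both files summed. Wnt3a, Wnt9a and Dkk3 were called without control 1. Dkk3 was also called with the replicate number as a block, and Fzd4 with the second file alone. Of the 7, 6 received an adjusted p, and 4 of these had a positive and 2 a negative log2 fold change, from -2.26 for Wnt9b to 0.80 for Wnt9a. Their median was 0.33, against 0.10 for the 31 tested members without the word and -0.00087 over all genes tested. Fzd4 and Dkk3, the pair of higher values with an unadjusted p under 0.05, carry the word shown above, as does Wnt9b, whose value was lower. The called member, Fzd5, does not. Promoter windows of 300 bases in RefSeq (GRCm38.p6) matched 27 of the 41 members by symbol. The word CTTTGA, read by Tcf and Lef proteins, was in 5 of them on either strand (18.5%: Dkk1, Fzd1, Lef1, Wnt11 and Wnt5b), beside 18.2% of all genes with a window.

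Other genes of the pathway were read from a list of 65 written from general knowledge. Of these, 61 received an adjusted p and 2 were called (3.28%, beside 2.93% of all genes tested), 1 higher and 1 lower. Ctnnbip1, which encodes an inhibitor that keeps β-catenin from Tcf proteins, fell from 3888, 3698 and 3654 normalised counts in controls to 2843, 2846 and 2721 in Rx-Dicer libraries. The groups lay well apart (log2 fold change -0.42 ± 0.11, or 0.748-fold, adjusted p = 0.00723). Tle4, a co-repressor of the Groucho family that binds Tcf proteins, rose from 4819.8, 4664 and 4191 to 5568, 6176 and 6469 (0.41 ± 0.12, or 1.33-fold, adjusted p = 0.0292). Of 17 alternative settings, Ctnnbip1 was called in 15 and Tle4 in 11. Both calls were lost with edgeR, which called none of the 65 and gave 11 (17.5% of 63 tested) an unadjusted p under 0.05, and with the replicate number as a block. The call of Tle4 was also lost without independent filtering and without control 2, control 3 or Rx-Dicer 3, with adjusted p values up to 0.158 over the settings.

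In the list, 11 genes (18.0%, beside 13.1% of all genes tested) had an unadjusted p under 0.05 with DESeq2, 8 higher and 3 lower. The higher values with the smallest p after Tle4 were those of Lgr4, an R-spondin receptor (0.75 ± 0.25, adjusted p = 0.0701), and of Tcf7, a Tcf factor (0.57 ± 0.19, 0.0808). The lower ones after Ctnnbip1 were those of Porcn, the enzyme that attaches the lipid to Wnt proteins (-0.47 ± 0.18, 0.172), and of Kremen2, a Dkk1 receptor (-1.29 ± 0.54, 0.208). Ctnnb1, which encodes β-catenin itself, was at 66922, 67032 and 67376 in controls and at 62885, 62866 and 64627 in Rx-Dicer libraries, groups that did not overlap but differed by a log2 fold change of only -0.08 ± 0.09 (adjusted p = 0.851). Without control 1, 8 of the 65 were called (12.9% of 62 tested, beside 3.49% of all genes). Of these, Notum (5.35), Sp5 (4.15), Nkd1 (0.70), Sp8 (0.61), Tcf7 (0.74), Frzb (0.77) and Tle4 (0.45) were higher and Ctnnbip1 (-0.39) was lower. Notum, Sp5 and Nkd1 had control 1 at least 2 times each other control, so their calls without it are no separate result.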

How the data were processed

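The authors deposited raw read counts per gene, made from directional 100 bp paired reads. Their processing notes name FastQC, Trim Galore 0.6.5, HISAT2, HTSeq 0.12.4 and assembly GRCm38.p6. Reads that HTSeq gave to no gene or to several genes, 24.9 to 31.0% of those tallied, were left out. Each of the 6 samples had 2 files, which differed by little more than sampling noise (chi-square per degree of freedom 1.11 to 1.47, against 20.5 to 29.6 between samples of a group), and were summed.

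All genes were fitted with DESeq2 1.42.0 (R 4.3.3; Wald test, median-of-ratios size factors, unshrunken fold changes, Benjamini-Hochberg adjustment, independent filtering), with genotype as the only term. edgeR 4.0.16 was the alternative. The fits were tested on simulated data. Exon lengths and 3′ UTRs came from GENCODE (GRCm38), and the longest UTR of a gene was used. Members and lists were chosen with earlier results of these data known. Values in full are given for members that were called, had an unadjusted p under 0.05, had groups that did not overlap with a mean of at least 50 normalised counts, or led their role class; exceptions are named as such. The precision of low counts is limited by depth: 3 counts were 0.0620 to 0.0870 CPM (counting error only). The values of 1 marker gene are not reported here.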

Additional observations from a re-analysis of the deposited data

How the results depend on the processing

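Of the 41 members, 1 was called, and of the 65 other pathway genes 2. The counts for members and for other pathway genes were 0 and 0 with edgeR's quasi-likelihood test (which gave 5 and 11 an unadjusted p under 0.05), 3 and 5 at adjusted p under 0.1, 2 and 2 with the second file alone, and 1 and 1 without independent filtering. The shares of all genes called in these 4 settings were 0.0446%, 4.32%, 2.68% and 1.04%. Leaving out each library in turn gave 1 to 7 members and 1 to 8 pathway genes, beside 1.53 to 4.22% of all genes. Other scalings, a filter on low counts, no fold minimum, the first file alone and, added after seeing the data, no filter on count outliers left both counts as they were. In the last fit Wnt3a had an adjusted p of 0.932.

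Replicate numbers are shared by the genotypes, and the labels do not say whether they pair the libraries. Deviations of same-numbered libraries correlated at 0.17, 0.03 and -0.13, and those of differently numbered ones at -0.17 to 0.16. The study compared littermates, and with 3 libraries per group these values cannot decide whether equal numbers mark a litter. With the replicate number as a block, 3 members (Fzd5, Wnt1 and Dkk3) and 1 pathway gene (Notum) were called, beside 1.83% of all genes, and the calls of Ctnnbip1 and Tle4 were lost.

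Signs changed for members with small differences. Fzd9 went from -0.0028 to 0.0095 with edgeR, 0.00078 with TMM scaling, 0.015 with total-count scaling, 0.00018 with the low-count filter and 0.11 with the first file alone. Fzd8 became 0.0092 with total-count scaling and 0.0032 with the second file alone, Fzd1 0.016 with the first file alone, and Wnt3 0.034 with that file and 0.094 with the block. Over the fits that left out 1 library, log2 fold changes ran from -0.59 to 0.78 for Wnt3, -0.30 to 0.20 for Wnt7b, -0.081 to 0.36 for Wnt2b, -0.14 to 0.13 for Fzd1, -0.11 to 0.34 for Fzd7, -0.28 to 0.14 for Fzd8, -0.37 to 0.34 for Fzd9, -0.072 to 0.54 for Fzd10, -0.30 to 0.81 for Rspo1, -0.59 to 2.75 for Rspo2, -0.43 to 2.35 for Rspo3, -0.25 to 1.09 for Dkk1 and -0.024 to 0.27 for Sfrp2. The cause was not tested.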
